A study of Mus musculus with 12 samples.

Results

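The genes described here are 41 parts of the machinery that copies DNA: 15 that license replication origins, 22 that work at the fork and 4 that supply deoxynucleotides. They were chosen by name, 1 per symbol, and the probe set with the highest mean log2 level over all 12 arrays stood for each gene. All 41 of the 18193 genes with a probe set passed the filter on low values (10759 genes did). Messenger RNA was measured on Affymetrix arrays in G1ME cells, a mouse line of bipotent megakaryocyte and erythroid progenitors. All groups come from this 1 cell line, which the labels call Gata1-negative. Cells received the MIGR1 retroviral vector alone, which carries GFP (vector cells below), or a GATA1 construct (GATA1 cells below). GFP-positive cells were sorted 18 h or 42 h later, which gives 4 groups of 3 arrays lettered A, B and C and called biological triplicates. Where separate cultures are not described further, p-values measure the spread between these arrays.

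Replication starts at origins that are licensed in G1. The origin recognition complex (ORC) binds DNA and, with Cdc6 and Cdt1, loads the ring-shaped MCM helicase, while geminin (Gmnn) blocks Cdt1 after S phase begins. Cdc45 and the GINS complex then turn MCM into an active helicase, polymerase alpha with primase lays down primers, replication factor C (RFC) loads the sliding clamp PCNA, and polymerases delta and epsilon extend the strands. Fen1 and DNA ligase 1 join the pieces of the lagging strand, and ribonucleotide reductase makes deoxynucleotides. Genes of this machinery are typically driven by E2F factors around the G1 to S transition, and erythroid maturation is known to couple its last divisions to differentiation.

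The promoters of 4 genes that passed the test at 42 h are shown to place the called genes beside their upstream sequence, 1 each from ORC, MCM, the clamp loader and nucleotide supply. Each is the 250 bases before a start listed by RefSeq on GRCm38.p6, 5′ to 3′ on the gene's strand, with capitals for the letters of an E2F core, a CCAAT box or a GATA core, searched on both strands. The E2F core was spelled as TTGGCGC, or as TTCCCGC, or as TTCGCGC, or else as TTGCCGC. The GATA core was spelled as AGATAA, or as TGATAA, or as AGATAG, or else as TGATAG.
Orc2, chr1:58505110-58505359, minus strand: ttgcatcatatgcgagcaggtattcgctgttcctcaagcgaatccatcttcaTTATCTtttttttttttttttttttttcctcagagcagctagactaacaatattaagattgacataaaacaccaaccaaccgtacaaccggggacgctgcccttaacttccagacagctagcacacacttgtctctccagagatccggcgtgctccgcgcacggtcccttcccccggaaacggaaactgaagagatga
Mcm6, chr1:128359706-128359955, minus strand: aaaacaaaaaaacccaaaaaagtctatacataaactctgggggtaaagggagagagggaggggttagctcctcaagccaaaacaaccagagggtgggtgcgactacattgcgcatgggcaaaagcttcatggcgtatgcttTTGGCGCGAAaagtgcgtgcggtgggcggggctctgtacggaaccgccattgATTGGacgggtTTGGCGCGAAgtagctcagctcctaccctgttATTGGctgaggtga
Rfc4, chr16:23127731-23127980, minus strand: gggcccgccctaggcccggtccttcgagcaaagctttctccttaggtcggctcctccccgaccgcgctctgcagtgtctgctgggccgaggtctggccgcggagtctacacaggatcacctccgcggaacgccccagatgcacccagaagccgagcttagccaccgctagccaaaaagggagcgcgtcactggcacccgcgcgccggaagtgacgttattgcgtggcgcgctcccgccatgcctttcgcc
Rrm2, chr12:24708004-24708253, plus strand: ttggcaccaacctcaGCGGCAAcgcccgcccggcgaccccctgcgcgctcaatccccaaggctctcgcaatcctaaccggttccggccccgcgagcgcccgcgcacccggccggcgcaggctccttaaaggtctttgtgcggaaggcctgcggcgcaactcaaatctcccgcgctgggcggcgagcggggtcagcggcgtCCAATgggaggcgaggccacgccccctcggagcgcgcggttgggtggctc
The Orc2 stretch holds 1 GATA core match, on the opposite strand and 198 bases before the start. Mcm6 holds E2F core matches at 109, 106, 46 and 43 bases before the start, which lie as overlapping pairs on opposite strands, and CCAAT boxes at 57 and 14. Rrm2 holds an E2F core at 235 and a CCAAT box at 50, and the Rfc4 stretch holds none of these letters.

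Promoters were listed for 33 of the 41 genes. An E2F core lay in 15 of these 33 (45.5%), against 16.3% of the 8824 tested genes with a listed promoter and 9.01% of all 27025 genes in the table. CCAAT boxes lay in 21 of 33 (63.6%), against 40.9% and 37.5%. A GATA core lay in 5 of 33 (15.2%), against 21.1% and 29.7%. Among genes that did not pass the test at 42 h, 13 of 27 held an E2F core (48.1%), and among those that rose, 1 of 4 did. These shares describe letters in a window, count a gene once if any listed start has a match, and were not tested.

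Array medians ran from 8.05 to 8.29. The log2 ratio of 3′ to 5′ actin signal was 0.38 to 0.55 on 11 arrays and 0.80 on GATA1 42 h replicate A. The Gata1 probe set read 3002 ± 284 (SD, n = 3) in the vector arrays at 18 h, 2334 ± 91.0 in the GATA1 arrays at 18 h, and 3137 ± 116 and 2044 ± 355 at 42 h. This signal lay far above the array medians in every group and was lower with the GATA1 construct. The sources used here do not say which part of the gene the probe set covers. It therefore checks neither the label Gata1-negative nor the construct, and the labels are used as given. Of the progenitor markers, Kit, Gata2 and Myb lay above their array's median on all 12 arrays, and Cd34 and Flt3 on none. The summed intensity of 8 erythroid markers ranged from 8519 to 9992 in vector cells and from 44979 to 51401 in GATA1 cells at 42 h, and 8 of 8 rose. Of these, Hba-x and Alas2 exceeded their array's median only on the 3 GATA1 arrays at 42 h. They entered the test through the group where they were high, so their rise adds no support of its own. The summed intensity of 6 megakaryocyte markers ranged from 16311 to 16870 and from 31596.5 to 39892, with 4 of the 6 higher (Pf4, Gp1bb, Vwf and Tubb1), Gp9 lower and Itga2b not past the threshold. Vwf exceeded its array's median only on the 6 arrays of GATA1 cells, so the same limit holds for it. The sum of 5 progenitor markers ranged from 7659 to 9319 and from 3518 to 4350. Summed mast cell markers were also lower at 42 h (1552 to 2622 in vector cells, 65.7 to 101 in GATA1 cells). Cpa3 carried this sum (means 2008 and 49.9). Hdc did not pass, and Fcer1a, Mcpt8, Mcpt4 and Cma1 were too low to be tested. Summed myeloid markers were lower too (1821 to 2162, and 150.2 to 174), through Fcgr3 (means 1830 and 59.3) and Mpo. Prtn3 went the other way (means 23.5 and 63.5), Csf1r did not pass, and Elane and Itgam were too low to be tested. Lymphoid and stromal markers lay near the bottom of the scale in every group. Summed proliferation markers overlapped between the groups (15666 to 18275, and 17935 to 20452), and of these 4 genes only Top2a passed: it rose, from 5273 to 6015 in vector cells and from 6387 to 6846 in GATA1 cells. Aurkb also did not overlap (1153 to 1289, and 1291 to 1465) but did not pass, and Mki67 and Cdk1 overlapped. In bulk RNA, fewer cells of a type or of a cell cycle phase and less RNA per cell cannot be told apart, and the part of these shifts in the results below was not tested.

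**Figure D1:**
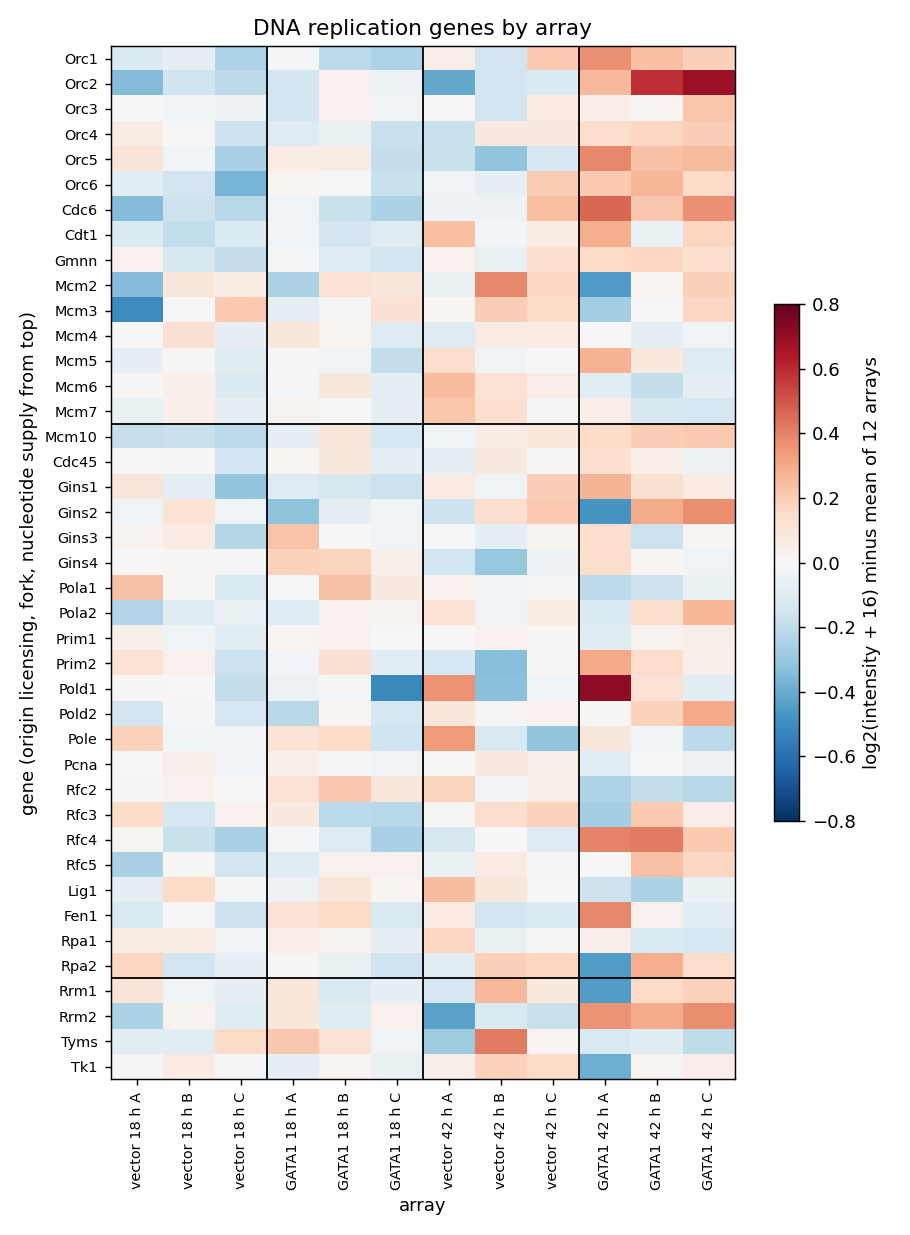
Each row is 1 of the 41 replication genes, each column 1 of the 12 arrays, and the colour gives log2(intensity + 16) minus the gene's mean over the 12 arrays, with the scale ending at 0.8 in either direction. Orc2, Orc5, Rfc4 and Rrm2 are highest in the 3 GATA1 arrays at 42 h and Rfc2 is lowest there, while most rows differ little between groups.

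The brightest licensing genes were Mcm5 and Mcm7, subunits of the MCM ring, the brightest fork genes were Pcna, the sliding clamp, and Rpa1, the large subunit of the protein that coats single-stranded DNA, and the brightest of nucleotide supply were Rrm2 and Rrm1, the small and large subunits of ribonucleotide reductase. Intensities of different probe sets are not compared as amounts of RNA. Mcm5 read 18775, 19796 and 18363 on the 18 h vector arrays and 19812, 19238 and 17247 with GATA1, then 21629, 19291 and 19619.8 on the 42 h vector arrays and 23839, 20756 and 18284 with GATA1. Mcm7 read 13633, 14603 and 13412 on the 18 h vector arrays and 14455, 14212 and 13507 with GATA1, then 16506, 15459 and 14056 on the 42 h vector arrays and 14699, 12959 and 12922 with GATA1. Its 42 h groups overlapped, and so did those of Mcm5. Pcna read 26429, 27212 and 25977 on the 18 h vector arrays and 27156, 26156 and 25957 with GATA1, then 26430.0, 27796 and 27284 on the 42 h vector arrays and 24843, 26473 and 25752 with GATA1. Rpa1 read 10899.6, 10891 and 10205 on the 18 h vector arrays and 10843, 10678 and 9972 with GATA1, then 11726, 10047 and 10538 on the 42 h vector arrays and 10743, 9612 and 9488 with GATA1. Both overlapped between vector and GATA1 cells at each time, and the Pcna arrays had the smallest residual spread of the 41 genes (SD 0.04 on the log2 scale). Rrm1 read 6921, 6295 and 6161 on the 18 h vector arrays and 6869, 5958 and 6161 with GATA1, then 5838, 7723 and 6795 on the 42 h vector arrays and 4718, 7164 and 7333 with GATA1, and its groups overlapped at each time.

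At 18 h, 0 of the 41 genes passed the test between GATA1 and vector cells (limma, two-sided, Benjamini-Hochberg adjusted p under 0.05), where 1.85% of all tested genes did (1.1% higher and 0.753% lower). Unadjusted p was under 0.05 for 2 genes, Mcm10 and Rfc2. Changes are differences of mean log2(intensity + 16), GATA1 minus vector. They ran from -0.15 to 0.19 with a median of 0.02, and the 95% intervals of all 41 lay within a 2-fold change, a size that 0.79% of all tested genes reached. Orc2 had the highest value, 0.19 ± 0.12 (SE; limma adjusted p = 0.822). Groups did not overlap for 4 genes (Orc2, Mcm10, Gins4 and Rfc2), and for 15.4% of all tested genes.

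At 42 h, 7 of the 41 genes passed (17.1%), against 20.9% of all tested genes, so replication genes were called about as often as the rest. Orc2, Orc5, Rfc4 and Rrm2 rose and Mcm6, Rfc2 and Lig1 fell, where 10.3% of all tested genes rose and 10.6% fell. The median change was 0.05 and the range -0.29 to 0.74. The median size of change was 0.15 both in these 41 genes and in all tested genes. None of the 41 changed by as much as 2-fold, whereas 5.11% of all tested genes did, and the 95% intervals of 40 lay within 2-fold, the exception being Orc2 with an upper bound of 1.003 on the log2 scale. Without the 4 arrays lettered A only Orc2 and Rrm2 passed, where 16.3% of all tested genes did. Without vector 42 h replicate C 11 of the 41 passed, where 19.8% of all tested genes did.

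**Figure D2:**
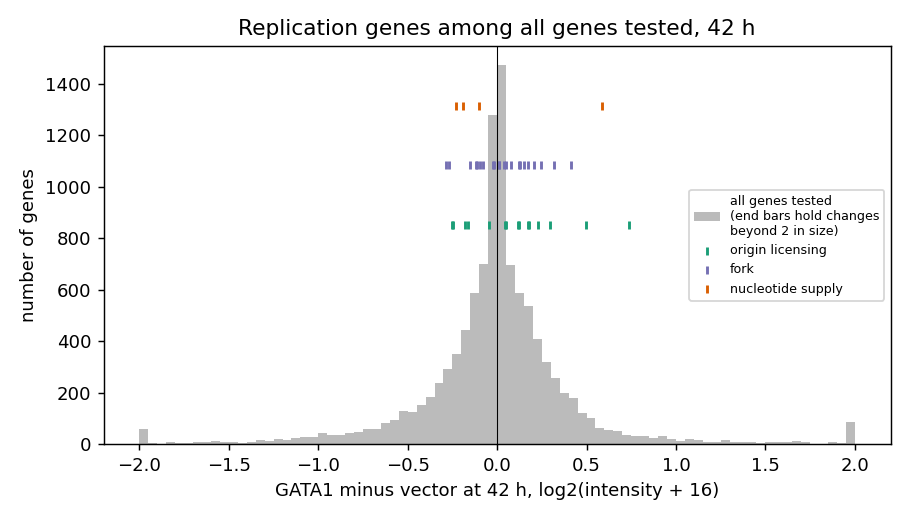
Grey bars count all 10759 tested genes by their change at 42 h (GATA1 minus vector, log2(intensity + 16)), and coloured ticks mark the 41 replication genes by role, at heights set only for legibility. The ticks lie between -0.29 and 0.74, within the body of the distribution.

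**Figure D3:**
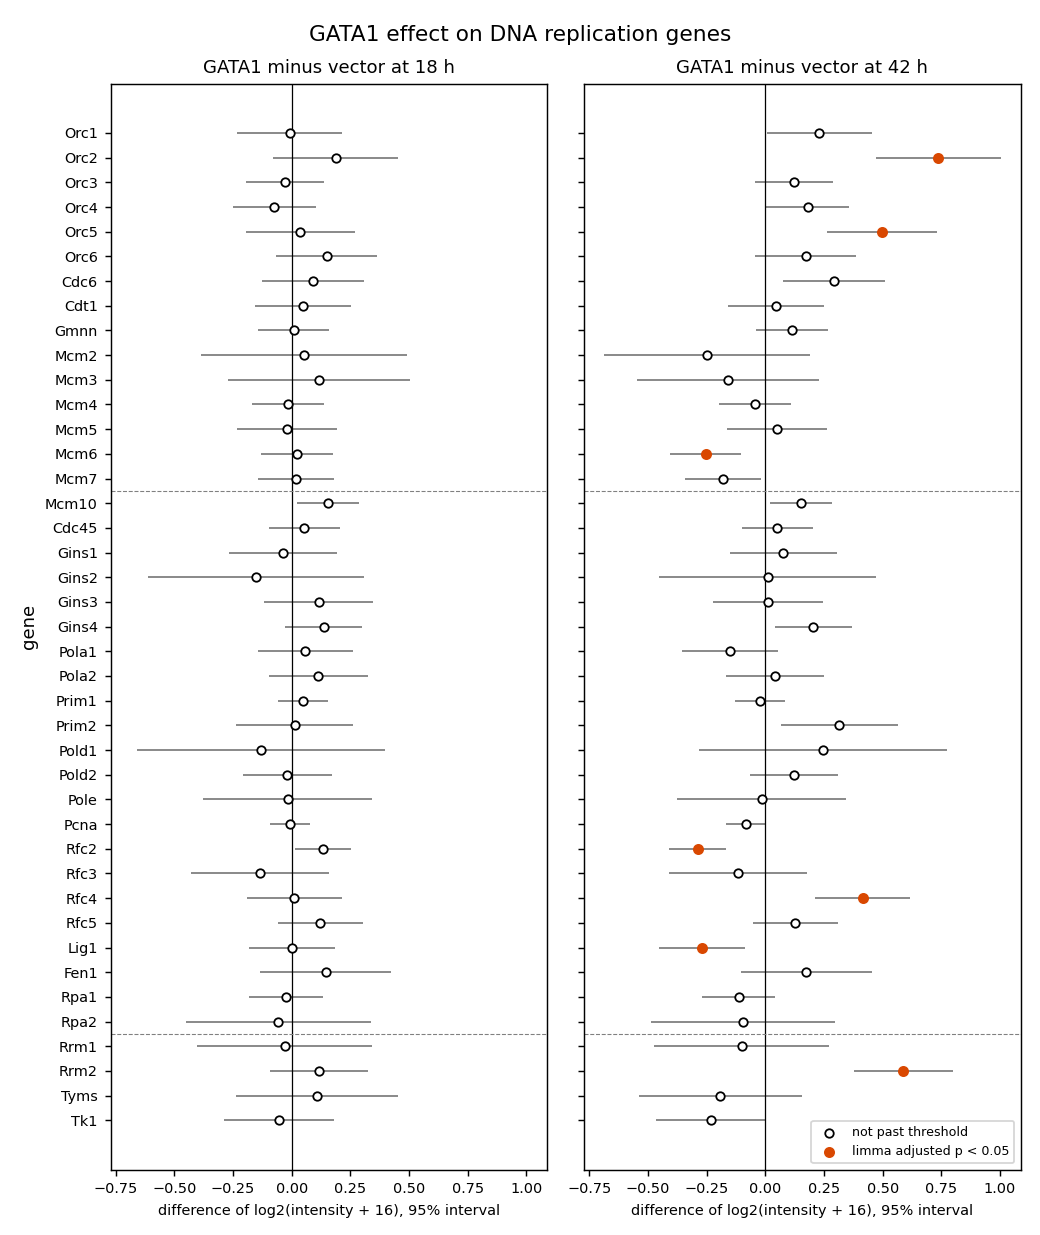
Points are changes of the 41 genes on the log2(intensity + 16) scale with 95% intervals, for GATA1 against vector cells at 18 h and at 42 h. At 18 h no gene passed the test, and at 42 h 4 lay higher and 3 lower past it, Orc2 farthest at 0.74.

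Of the 6 ORC genes, 2 rose in GATA1 cells at 42 h, where 10.3% of all tested genes did. On the brightest probe sets the changes of all 6 were above 0, with a median of 0.21. Of all tested probe sets, 49.9% lay above 0. For Orc4 the sign depended on the probe set, as its others changed by 0.01, -0.12 and -0.03. Orc2, a core subunit of ORC, read 839, 957 and 923 on the 18 h vector arrays and 966, 1096 and 1041 with GATA1, then 801, 959 and 990.0 on the 42 h vector arrays and 1283, 1618 and 1732 with GATA1. The 3 GATA1 arrays at 42 h were above every other array, and the gene rose 1.67-fold over the vector cells at that time, by 0.74 ± 0.12 (SE; limma adjusted p = 0.0018). Orc5, a subunit with an ATPase fold, read 1104, 1011 and 855 on the 18 h vector arrays and 1069, 1072 and 899 with GATA1, then 905, 821 and 938 on the 42 h vector arrays and 1343, 1210.5 and 1225 with GATA1. All 3 GATA1 arrays at 42 h again lay above the other 9 arrays, and Orc5 rose by 0.50 ± 0.10 (limma adjusted p = 0.0076). The remaining 4 subunits did not pass. Their changes were 0.23 for Orc1, the subunit that contacts Cdc6, 0.12 for Orc3, 0.18 for Orc4 and 0.17 for Orc6. Orc1 read 337, 344 and 305 on the 18 h vector arrays and 363, 314 and 304 with GATA1, then 379, 326 and 423 on the 42 h vector arrays and 475, 433 and 419 with GATA1, and its 42 h groups overlapped. Orc4 read 1146, 1096 and 977 on the 18 h vector arrays and 1025, 1054 and 969 with GATA1, then 969, 1156 and 1155 on the 42 h vector arrays and 1213, 1233 and 1266 with GATA1, and its 42 h groups did not overlap. Under 23 alternatives of processing the ORC median at 42 h stayed between 0.17 and 0.35. Orc5 did not pass without the arrays lettered A (limma adjusted p = 0.0626, range over alternatives 0.0038 to 0.0626).

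The other loading factors did not pass at 42 h. Cdc6, the ATPase that joins ORC to load MCM, read 969, 1099 and 1055 on the 18 h vector arrays and 1208, 1089.7 and 1032 with GATA1, then 1201, 1199 and 1459 on the 42 h vector arrays and 1699.7, 1437 and 1594 with GATA1. Its change was 0.29 (limma adjusted p = 0.0603), and 1 vector array (replicate C) exceeded the lowest GATA1 array. Without that array it passed, at an adjusted p of 0.0174. Cdt1, the MCM chaperone of licensing, changed by 0.05, and geminin, its inhibitor, by 0.11, neither past the threshold. Gmnn read 3858, 3436 and 3295 on the 18 h vector arrays and 3737, 3496 and 3404 with GATA1, then 3853, 3609 and 4114 on the 42 h vector arrays and 4187, 4224 and 4107 with GATA1, and its 42 h groups overlapped. Cdt1 means were 3599 ± 343 and 3722 ± 443 (SD, n = 3) in vector and GATA1 cells at 42 h.

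Of the 6 MCM genes, 1 fell at 42 h, where 10.6% of all tested genes did. Of all tested probe sets, 50.1% lay below 0. On the brightest probe sets the changes of 5 MCM genes lay below 0, with a median of -0.17 over the 6. Over 23 alternatives that median ran from -0.21 to -0.06, the latter without GATA1 42 h replicate A, and it was -0.07 with second-brightest probe sets. Above 0 lay 0 of the 6 without that array and 2 of the 6 with second-brightest probe sets. Mcm6 read 11911, 12163 and 10889.5 on the 18 h vector arrays and 11679, 12573 and 11246 with GATA1, then 14002, 12811 and 12260.5 on the 42 h vector arrays and 11133, 10346 and 11256 with GATA1. The 3 GATA1 arrays at 42 h lay below the 3 vector arrays of that time, and Mcm6 fell by 0.25 ± 0.07 on the log2 scale (limma adjusted p = 0.0255). This call was lost when vector 42 h replicate A (0.0871), vector 42 h replicate B (0.0565) or GATA1 42 h replicate B (0.0931) was left out, these being adjusted p-values. The second-brightest Mcm6 probe set changed by -0.01, and over all alternatives the adjusted p ranged from 0.0091 to 0.990. Mcm7 changed by -0.18 (limma adjusted p = 0.113), Mcm2 by -0.25 (0.457), Mcm3 by -0.16 and Mcm4 by -0.04, none past the threshold. Mcm2 spread widely, at 5999, 8157 and 7028 in the vector arrays and 4553, 6307 and 7136 in GATA1 cells at 42 h, and its second probe set changed by 0.004.

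At the fork, 1 of 22 genes rose and 2 fell at 42 h (13.6%, against 20.9% of all tested genes), with a median of 0.03. Within the clamp loader 1 gene rose and 1 fell. Rfc4, a small RFC subunit, read 3770.0, 3287 and 3106 on the 18 h vector arrays and 3671, 3459 and 3104 with GATA1, then 3399.9, 3713 and 3464 on the 42 h vector arrays and 4902, 4949 and 4293 with GATA1. The 3 GATA1 arrays at 42 h were the highest of the 12, and Rfc4 rose by 0.42 ± 0.09 (limma adjusted p = 0.0096). Rfc2, another small subunit, read 4459, 4589 and 4464 on the 18 h vector arrays and 4860.1, 5205 and 4768 with GATA1, then 5070.2, 4420.2 and 4635 on the 42 h vector arrays and 3771, 3927 and 3843 with GATA1. At 42 h the 3 GATA1 arrays were the lowest of the 12, and at 18 h the GATA1 arrays were above the vector arrays. Rfc2 fell by 0.29 ± 0.05 on the log2 scale (limma adjusted p = 0.0043). Rfc3 and Rfc5 changed by -0.12 and 0.13, not past the threshold. Without the arrays lettered A neither RFC gene passed (0.0583 for Rfc4 and 0.0651 for Rfc2), and their second probe sets changed by 0.34 and -0.19 without passing. Over all alternatives the adjusted p ranged from 0.0026 to 0.205 for Rfc4 and from 0.0035 to 0.398 for Rfc2.

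Lig1, which seals the joined fragments of the lagging strand, read 2544, 2962 and 2659 on the 18 h vector arrays and 2592, 2866 and 2706 with GATA1, then 3176, 2854 and 2686 on the 42 h vector arrays and 2389, 2245 and 2574 with GATA1. The groups at 42 h did not overlap, and it fell by 0.27 ± 0.08 on the log2 scale (limma adjusted p = 0.0423). Of the 7 calls at 42 h this was lost most often, in 13 of 22 alternatives. These include leaving out vector 42 h replicate A (adjusted p 0.137) or B (0.0854), GATA1 42 h replicate A (0.0923) or B (0.144), vector 18 h replicate C (0.0589) and GATA1 18 h replicate A (0.0520), B (0.0523) or C (0.0614). Over all alternatives the adjusted p ranged from 0.0109 to 0.222. Fen1, the flap nuclease, changed by 0.17 and Pcna by -0.08 ± 0.04, neither past the threshold.

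The helicase activators and polymerases did not pass at 42 h. On the brightest probe sets, changes of all 4 GINS genes were above 0, from 0.01 to 0.21 for Gins4 (limma adjusted p = 0.0772), and Cdc45 changed by 0.05. The second Gins3 probe set changed by -0.14. Mcm10, a scaffold for helicase activation, changed by 0.15 at each time. The 7 polymerase and primase genes ranged from -0.15 for Pola1, the catalytic subunit of polymerase alpha, to 0.32 for Prim2, the large primase subunit (limma adjusted p = 0.0762). The largest spread among these was in Pold1, the catalytic subunit of polymerase delta, with 1424 ± 347 in vector cells and 1708 ± 521 in GATA1 cells. The single-strand binding subunits Rpa1 and Rpa2 changed by -0.11 and -0.09.

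Of nucleotide supply, Rrm2 read 8644, 10516 and 9623 on the 18 h vector arrays and 10981, 9624 and 10546 with GATA1, then 7652, 9461 and 9092 on the 42 h vector arrays and 13242, 12689.7 and 13326 with GATA1. The 3 GATA1 arrays at 42 h were above all other arrays, and Rrm2 rose 1.5-fold over the vector cells, by 0.59 ± 0.09 (limma adjusted p = 0.0018). It passed in all 23 alternatives, as Orc2 did. Its partner Rrm1 changed by -0.10, thymidine kinase (Tk1) by -0.23 (limma adjusted p = 0.162), and thymidylate synthase (Tyms) by -0.19, none past the threshold. Tyms had group means from 75.6 to 92.5.

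**Figure D4:**
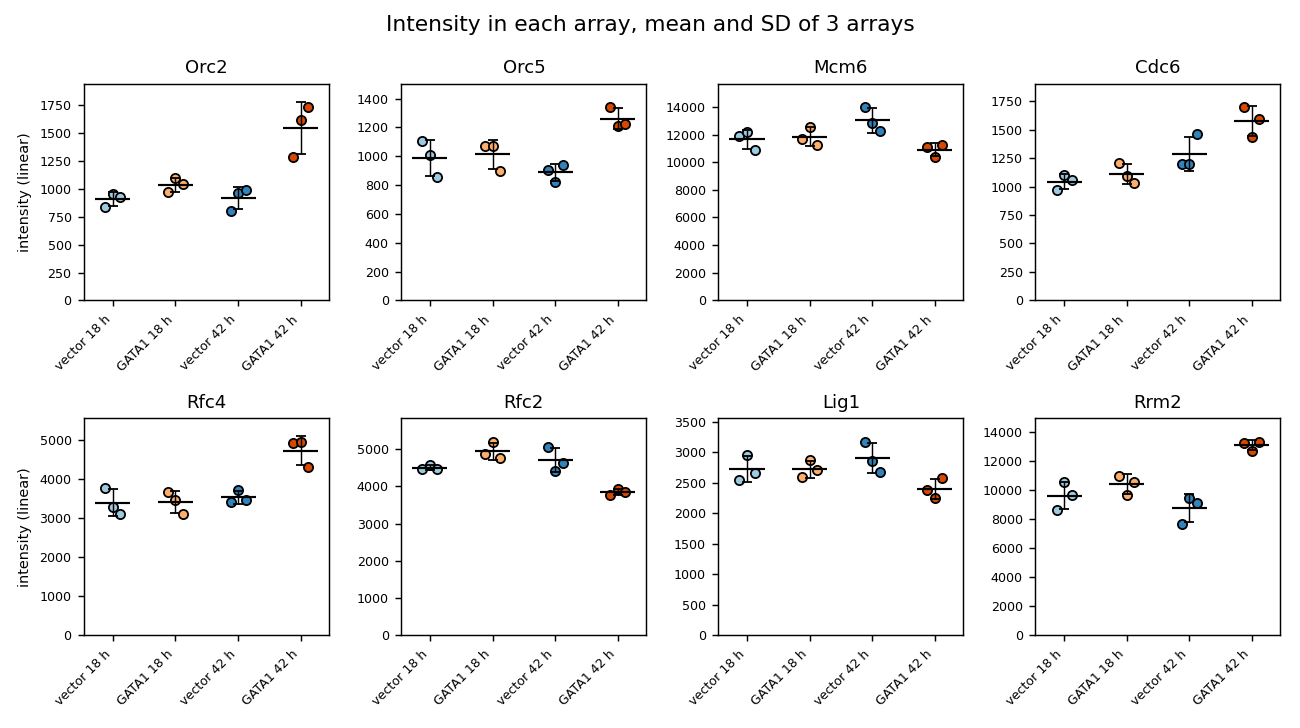
Points are the deposited intensities of single arrays, wide bars the means of 3 arrays and whiskers the SD, in the 4 groups, for the 7 genes that passed at 42 h and for Cdc6, which passed over time in GATA1 cells. Orc2, Orc5, Rfc4 and Rrm2 stand higher and Rfc2 lower in GATA1 cells at 42 h than in the other 3 groups.

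In the fit without the replicate letter, the GATA1 effect differed between the times for 1 gene. Rfc2 changed by 0.13 at 18 h (not past the threshold) and by -0.29 at 42 h, and its effect at 42 h minus that at 18 h was -0.42 ± 0.08 (limma adjusted p = 0.0138). This test called 4.68% of all tested genes (2.31% higher and 2.38% lower) and 1 of these 41 (2.44%). No gene of the 41 reached a 2-fold difference of effects, which 2.87% of all tested genes did. Orc2 (0.55, adjusted p = 0.121), Rrm2 (0.47, 0.0925), Orc5 (0.46, 0.138) and Rfc4 (0.40, 0.136) had values above 0 without passing in limma. With the replicate letter in the fit as a block, Orc2 (limma adjusted p = 0.0091) and Rfc4 (0.0398) passed too. The median over the 6 ORC genes was 0.25 and over the 6 MCM genes -0.24. Without GATA1 42 h replicate A, Orc2 passed as well. Without the 4 arrays lettered A, Orc2 passed (0.59, adjusted p = 0.0297) and Rfc2 did not (-0.36, 0.115).

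With time, vector cells showed no call. Between 18 h and 42 h in vector cells 0 of 41 genes passed, against 0.0186% of all tested genes (and 0.102% changed by 2-fold, none of them in this set), and 5 had an unadjusted p under 0.05 (Orc6, Cdc6, Cdt1, Mcm6 and Mcm10). Changes were above 0 for 33 of the 41, with a median of 0.06, and for 4615 of all 10759 tested genes, with a median of -0.01. Mcm10 read 899, 902 and 881 at 18 h and 997, 1066 and 1087 at 42 h, a change of 0.23 with groups that did not overlap (8 of the 41 genes, and 10.3% of all tested genes).

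In GATA1 cells 9 of the 41 genes changed between the times (22%), against 14.7% of all tested genes. Orc1, Orc2, Orc4, Cdc6, Gmnn, Mcm10, Rfc4 and Rrm2 rose and Rfc2 fell, where 6.73% of all tested genes rose and 7.94% fell. None of the 41 changed by 2-fold, which 3.13% of all tested genes did. Of the 15 licensing genes, 5 rose, with a median change of 0.23. These arrays at 42 h are also in the comparison with vector cells, and Orc2, Rfc2, Rfc4 and Rrm2 passed in both. A call here, without one in vector cells, does not show that the change over time differed between them. Of these 9 genes only Rfc2 passed the test of that difference. Mcm10 changed as much in vector cells (0.23) as in GATA1 cells (0.22), with a difference of -0.003. Cdc6 rose by 0.50 ± 0.10 (limma adjusted p = 0.0080), from 1109.9 ± 89.4 to 1577 ± 132. Vector cells moved by 0.30 over the same time (limma adjusted p = 0.571). Orc1 rose by 0.42 ± 0.10 (limma adjusted p = 0.0206), from 327 ± 31.3 to 442 ± 28.9. Orc4 rose by 0.28 ± 0.08 (0.0417), from 1016 ± 42.8 to 1237 ± 26.6. Gmnn rose by 0.23 ± 0.07 (0.0466), from 3546 ± 172 to 4173 ± 59.4. Mcm10 rose by 0.22 ± 0.06 (0.0332), from 978, 1096 and 926 to 1141, 1177 and 1185. Each of these pairs of groups was separate, as for 15 of the 41 genes and 31.5% of all tested genes. The count depends on single arrays, and shares of all tested genes under the same setting are in brackets. It was 5 without GATA1 18 h replicate A (11.6%), GATA1 42 h replicate B (9.84%) or GATA1 42 h replicate C (11.5%). Without GATA1 18 h replicate C it was 4 (9.95%). Orc2 and Cdc6 passed in every alternative. Over time in GATA1 cells, Orc1 was lost in 5 of 22 alternatives, Orc4 in 12 of 23, Gmnn in 12 of 22, Mcm10 in 11 of 23 and Rrm2 in 9 of 23.

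Several probe sets covered 26 of the 41 genes, and for 18 of these all tested probe sets had the same sign at 42 h. The 3 Orc2 probe sets changed by 0.74, 0.56 and 0.67, and all passed when the test was run over probe sets. The 3 Rrm2 probe sets changed by 0.59, 0.44 and 0.58, the third at an adjusted p of 0.0684 in limma. Orc3 changed by 0.12 on its brightest probe set and by 0.35 on the second (limma adjusted p = 0.0183). Orc4 had 4 probe sets, whose changes ran from -0.12 to 0.18. Over all 13 ORC probe sets 11 lay above 0 and 5 passed, and over the 18 MCM probe sets 14 lay below 0 and 1 passed. Of all 19636 probe sets tested, 15.8% passed, 49.9% lay above 0 and 50.1% below.

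**Figure D5:**
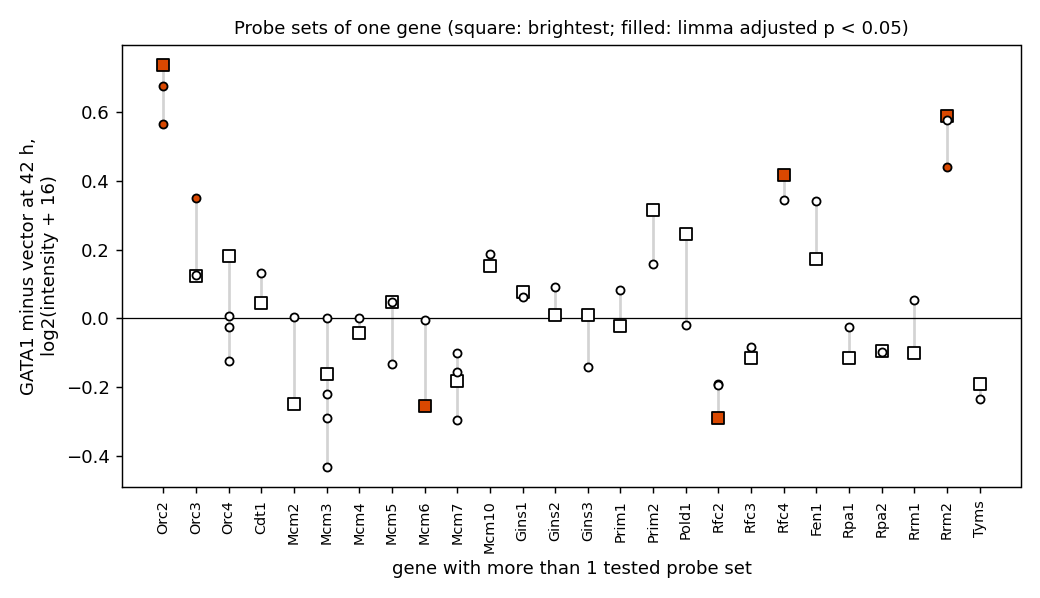
Each mark is the change at 42 h (GATA1 minus vector, log2(intensity + 16)) of 1 tested probe set, for the 26 genes with more than 1, with squares for the brightest probe set and filled marks for those past the threshold over probe sets. The 3 marks of Orc2 are all filled, while the marks of Mcm2, Mcm6 and Orc4 run from near 0 or across it to the value of the brightest probe set.

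A wider list of 51 tested replication genes held initiation kinases and scaffolds, further fork proteins and nucleotide enzymes. At 18 h 0 passed in limma (2 at an unadjusted p under 0.05) and at 42 h 7 did (13.7%), 4 higher and 3 lower, where 1.85% and 20.9% of all tested genes did. Donson, a replisome assembly factor, rose by 0.81 ± 0.06 (limma adjusted p = 2.55e-05), from 226 ± 12.2 in vector cells to 408 ± 15.4 in GATA1 cells. Dck, which salvages deoxycytidine, rose by 0.70 ± 0.11 (0.0014), from 3231 ± 176 to 5264 ± 606. Recql4, a helicase of initiation, rose by 0.62 ± 0.12 (0.0060). Tk2, the mitochondrial thymidine kinase, fell by 0.84 ± 0.13 on the log2 scale (0.0012), from 241 ± 22.6 to 129 ± 24.3. Shmt1, which feeds folate carbon to thymidylate synthesis, fell by 0.54 ± 0.11 (0.0073), and Rnaseh2b, a subunit of the ribonuclease that removes RNA from DNA, by 0.27 ± 0.08 (0.0450). The GATA1 effect on Donson, Dck and Tk2 also differed between the times.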

How the data were processed

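Total RNA of GFP-sorted cells was measured on 12 arrays, 3 per group. The authors deposited 1 linear intensity for each of 45101 probe sets per array. GCRMA and MAS5 are listed in the submitters' processing notes, but which gave these values is not stated there. No further normalization was applied. Probe sets were named through the platform annotation (34945 with 1 symbol, 932 with several, 9224 with none or a control). Values were analysed as log2(intensity + 16), which understates changes of dim genes. A gene was tested where its brightest probe set exceeded the array median on at least 3 of 12 arrays. The 4 groups were fitted together in limma 3.58.1 (R 4.3.3) with lmFit and eBayes. P-values were adjusted by Benjamini-Hochberg over 10759 genes at a threshold of 0.05. The fit gave 5 comparisons: GATA1 minus vector at 18 h and at 42 h, their difference, and 42 h against 18 h in vector and in GATA1 cells. The code was tested on simulated data. The number of arrays limits the precision. Values in every array are given for members past the threshold in any comparison and for the 2 brightest of each role; of the wider list, up to 3 rises and 3 falls are named. The members and lists were chosen with earlier results of these data known. Promoter sequences are those of RefSeq for GRCm38.p6.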

Additional observations from a re-analysis of the deposited data

Results flagged for a closer look

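The effect of GATA1 on Rfc2, a subunit of the clamp loader, differed between the times by a test of the difference itself. The change was 0.13 at 18 h and -0.29 at 42 h, and their difference was -0.42 ± 0.08 (SE; limma adjusted p = 0.0138; 3 arrays per group). Mean intensities in vector and GATA1 cells were 4504 ± 73.8 and 4944 ± 230 (SD, n = 3) at 18 h, and 4708 ± 331 and 3847 ± 78.3 at 42 h. The 2 other probe sets of Rfc2 gave differences of -0.24 and -0.29, neither past the threshold.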

How the results depend on the processing

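No call reversed its direction in any alternative. At 18 h, and over time in vector cells, 0 of the 41 genes passed in every alternative. Percentages in brackets below are shares of all genes tested under the same setting. At 42 h the count of 7 (20.9%) fell to 3 of 26 genes with the second-brightest probe sets (12.6%). It fell to 2 without the 4 arrays lettered A (16.3%), and leaving out single arrays gave 5 to 11 (15.7% to 20.6%). For the difference of the effects the count of 1 (4.68%) became 3 with the replicate block (7.93%) and 3 with array weights (6.84%). It was 0 with second-brightest probe sets (1.89%) and 1 to 2 without single arrays (3.01% to 5.01%). Over time in GATA1 cells the count of 9 (14.7%) became 5 with no filter on low values (6.29%) and 17 with array weights (27.2%). It was 3 with second-brightest probe sets (7.92%) and 4 to 10 without single arrays (9.84% to 14.9%). Array weights and the block changed which genes passed; the cause was not tested. The labels do not say what a replicate letter stands for, but the data hint that arrays of a letter share something: their deviations from the group means correlated by 0.45 to 0.66 for A, 0.33 to 0.65 for C and -0.11 to 0.38 for B (6 pairs each, 16 of 18 above 0.1), and 11 of 12 arrays had their best partner under the same letter. Of 36 pairs of unlike letters 26 were below 0. That is no separate support, since the deviations within a group sum to 0. Since 2 of the B pairs were not above 0.1, the letters were not taken as pairs. With the replicate block, 8 genes passed at 42 h, where 28.4% of all tested genes did. There Mcm2 (limma adjusted p = 0.0459) and Mcm7 (0.0440) were gained and Lig1 (0.0573) was lost. For the difference of the effects the block added Orc2 (0.0091) and Rfc4 (0.0398). Over time in GATA1 cells 13 genes passed with it, where 21.5% of all tested genes did. The 3 arrays per group limit the precision.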

Other observations

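GATA1 42 h replicate A, the array with the highest 3′ to 5′ actin ratio, stood apart for some replication genes, which were chosen after their values were seen. The array also had the highest log2 ratio of 3′ to 5′ Gapdh signal (-0.11, against -0.50 to -0.26 on the others). Its log2 signal of 18S ribosomal RNA was the highest as well (12.4, against 4.79 to 10.6). Gins2, a GINS subunit, read 446 on it and 771 and 814 on the other GATA1 arrays at 42 h. Rpa2 read 1593 on it, against 2659 and 2402, and Rrm1 read 4718, against 7164 and 7333. Pold1 ran the other way on its brightest probe set, at 2298 against 1515 and 1311. Its second probe set read 476 on that array, against 581 and 629, so the direction for Pold1 depended on the probe set. Second probe sets of Gins2, Rpa2 and Rrm1 were also lower on that array, by less. They differed from the mean of the other GATA1 arrays by -0.17, -0.26 and -0.17 on the log2 scale. Without GATA1 42 h replicate A, 7 of the 41 genes again passed between GATA1 and vector cells at 42 h, but not the same 7. Of all tested genes 19.3% then passed. Lig1 was lost (limma adjusted p = 0.0923) and Mcm7 was gained (0.0436). The median over the 6 MCM genes was then -0.06, the nearest to 0 of all alternatives, while 0 of the 6 lay above 0, against 1 with all arrays.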
